A study of Mus musculus with 6 samples.

Results

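The imprinted Dlk1-Meg3 domain of mouse chromosome 12 was followed through 5 of its genes, which were Meg3, Rian, Mirg, Dlk1 and Rtl1, out of 55385 gene identifiers in the count files. The members were chosen by their reads on both strands in these same libraries, which were known when they were proposed. Their levels and fold changes are therefore given as a description, with no p-value. Of the 5 members, 4 passed the filter on low counts, as did 18132 genes in all.

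RNA came from primary neurons of mouse cortex, taken at embryonic day 18 and grown for 16 days in vitro. The 3 libraries labelled activated were of cells exposed to KCl for 5 minutes, which depolarises neurons, then washed and given 30 minutes of recovery. The 3 libraries labelled control were of cells left untreated. Cells of both groups had received 2.5 uM AraC, which stops cells that replicate DNA, over 24 hours beginning on day 2. One label field gives KCl at 50 mM and another at 50 uM. No label states that replicates are independent cultures or mice. P-values then cover the spread among these 6 samples alone, which may be technical.

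Several facts of the libraries touch every result below. Reads assigned to genes numbered 17752711 to 32740171 in libraries labelled activated and 22994946 to 32919975 in those labelled control. Of 22 genes that neurons switch on within minutes of activity, 20 were lower and none higher in the libraries labelled activated at an adjusted p below 0.05 (quasi-likelihood test of edgeR), with log2 fold changes of −1.84 for both Arc and Npas4. These directions go against the labels, so each direction below rests on the labels as given. Markers of excitatory neurons were all measured and none stood at 0, with a summed level of 4384 to 4769 CPM, counts scaled to library size, in libraries labelled activated and 4581 to 4882 CPM in those labelled control. Markers of astrocytes were present too, at 2062 to 2530 CPM in libraries labelled activated and 1576 to 1630 CPM in those labelled control.

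In mammals the Dlk1-Meg3 domain is expressed from one or other parental chromosome. On the maternal chromosome a long run of noncoding RNAs is transcribed in one direction, beginning with Meg3 and passing through the RNA opposite Rtl1, then Rian, a host of C/D box small nucleolar RNAs, and Mirg, a host of microRNAs. The paternal chromosome expresses the protein-coding genes Dlk1, Rtl1 and Dio3. The maternal RNAs are abundant in brain. Reads were not assigned to parental alleles, so allele of origin was not measured.

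The region between Rtl1 and the end of Mirg holds most of the microRNA hairpins of the domain, and all 58 genes with a hairpin entry across the whole domain in the RefSeq table (GRCm38.p6) were found in the count files by symbol. The 6 hairpins that lie in the exons of Rtl1 on the opposite strand are shown first, because the microRNAs they give are complementary to the Rtl1 message and several are known in mouse to guide its cleavage. One mature form of each is printed 5′ to 3′ with its seed, bases 2 to 8, in capitals.
miR-431-5p: uGUCUUGCaggccgucaugca
miR-433-3p: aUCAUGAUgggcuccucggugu
miR-127-3p: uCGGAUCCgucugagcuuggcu
miR-434-3p: uUUGAACCaucacucgacuccu
miR-432: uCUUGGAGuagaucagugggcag
miR-136-5p: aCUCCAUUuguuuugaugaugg
No seed is shared among these 6.

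The distal hairpins, between the noncoding gene B830012L14Rik and the end of Mirg, are related to each other, and 9 seeds of the domain are held by more than one of its 113 mature microRNAs. Pairs with a shared seed are shown, as their hairpins had different values below.
miR-379-5p: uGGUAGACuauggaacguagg
miR-1193-5p: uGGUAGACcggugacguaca
miR-379-3p: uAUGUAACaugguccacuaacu
miR-411-3p: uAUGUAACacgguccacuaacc
miR-758-5p: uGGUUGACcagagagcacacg
miR-1197-5p: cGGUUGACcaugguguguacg
miR-453: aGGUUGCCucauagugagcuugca
miR-496a-5p: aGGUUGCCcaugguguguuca
Also printed are miR-134-5p, which in rat hippocampal neurons restrains dendritic spine size, and miR-410-3p, since their hairpins overlap exons of Mirg.
miR-134-5p: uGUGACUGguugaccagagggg
miR-410-3p: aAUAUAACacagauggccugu
The libraries were of total RNA and not of size-selected small RNA, so the amounts of mature microRNAs were not measured. Reads over a hairpin gene are given below as reads of that interval only.

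The promoter of Meg3 is printed because the members downstream of it on the maternal chromosome are described together. The window runs from 250 bases before to 50 bases after the first of the Meg3 starts that RefSeq lists, chr12:109540746-109541045 on the plus strand (GRCm38.p6).
Meg3: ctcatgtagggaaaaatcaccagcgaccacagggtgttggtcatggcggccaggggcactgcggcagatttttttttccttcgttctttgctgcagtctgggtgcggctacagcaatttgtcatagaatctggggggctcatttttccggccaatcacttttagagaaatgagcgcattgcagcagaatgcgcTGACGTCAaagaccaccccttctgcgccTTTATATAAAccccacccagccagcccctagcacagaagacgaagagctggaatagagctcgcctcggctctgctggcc
Capitals mark the full cAMP response element, TGACGTCA, whose first base lies at −57 from the start, and a run that holds the TATA box letters TATAAA on both strands, at −29 and −25. Searched on both strands, TGACGTCA stood in 1.79% of 32851 RefSeq promoters of the same length and TATAAA in 13.6%. The 5-base half-site TGACG, which the full element contains, stood in 20.8% of those promoters and was found once in the Dlk1 window, at −106, and in neither the Rian nor the Mirg window. That Mirg window, chr12:109734731-109735030, lies inside the Mirg gene as annotated here and not at its start. The window of a second, downstream Meg3 start, chr12:109545148-109545447, held none of these motifs and is not printed. The AP-1 letters TGANTCA, present in 7.81% of promoters, were not found in any window tabulated for Meg3, Rian, Mirg, Dlk1 or Dio3.

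Meg3, a nuclear long noncoding RNA, was among the most abundant RNAs of these cells and was higher on average in the libraries labelled activated. Meg3 (ENSMUSG00000021268.17, chr12:109541001-109571726, plus strand, mm10) stood at 2551, 3132 and 2056 CPM in activated replicates 1, 2 and 3, against 2018, 1560 and 2081 CPM in control replicates 1, 2 and 3. The groups overlapped, since activated replicate 3 lay just below control replicate 3, and activated replicate 2 was the highest. The means were 2580 ± 539 CPM in libraries labelled activated and 1887 ± 284 CPM in libraries labelled control (SD, n = 3 each), and the log2 fold change was 0.45 ± 0.13 (SE). The difference was 0.29 without activated replicate 2. Meg3 ranked 11 of all tested genes by mean CPM, and 36852 to 87204 reads per library stood behind these values.

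Rian (ENSMUSG00000097451.11, chr12:109603940-109661716, plus strand) differed least of the 3 maternal members. It stood at 922, 943 and 806 CPM in activated replicates 1, 2 and 3, against 760, 715 and 772 CPM in control replicates 1, 2 and 3. Every library labelled activated was above every library labelled control, with the closest pair at 806 and 772 CPM. The means were 890 ± 73.9 CPM in libraries labelled activated and 749 ± 30.3 CPM in libraries labelled control (SD, n = 3 each), and the log2 fold change was 0.25 ± 0.07 (SE). The gene model of Rian in the annotation used here is of another version than in the count files, so its coordinates may differ from those counted.

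Mirg, the most distal maternal member, differed most. Mirg (ENSMUSG00000097391.8, chr12:109729764-109749460, plus strand) stood at 78.6, 89.7 and 67.8 CPM in activated replicates 1, 2 and 3, against 48.6, 37.5 and 38.1 CPM in control replicates 1, 2 and 3. The groups did not overlap, and the lowest library labelled activated was well above the highest labelled control. The means were 78.7 ± 10.9 CPM in libraries labelled activated and 41.4 ± 6.23 CPM in libraries labelled control (SD, n = 3 each), and the log2 fold change was 0.93 ± 0.11 (SE). Reads per library ran between 885 and 2497. Mirg shares exons on its strand with 9 small RNA genes, and reads that fall on both may be left unassigned by this kind of counting. Among the 9, Mir134 and Mir410 were listed at 0 in all 6 libraries, whereas Mir369 had 3 to 10 reads per library.

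**Figure D1:**
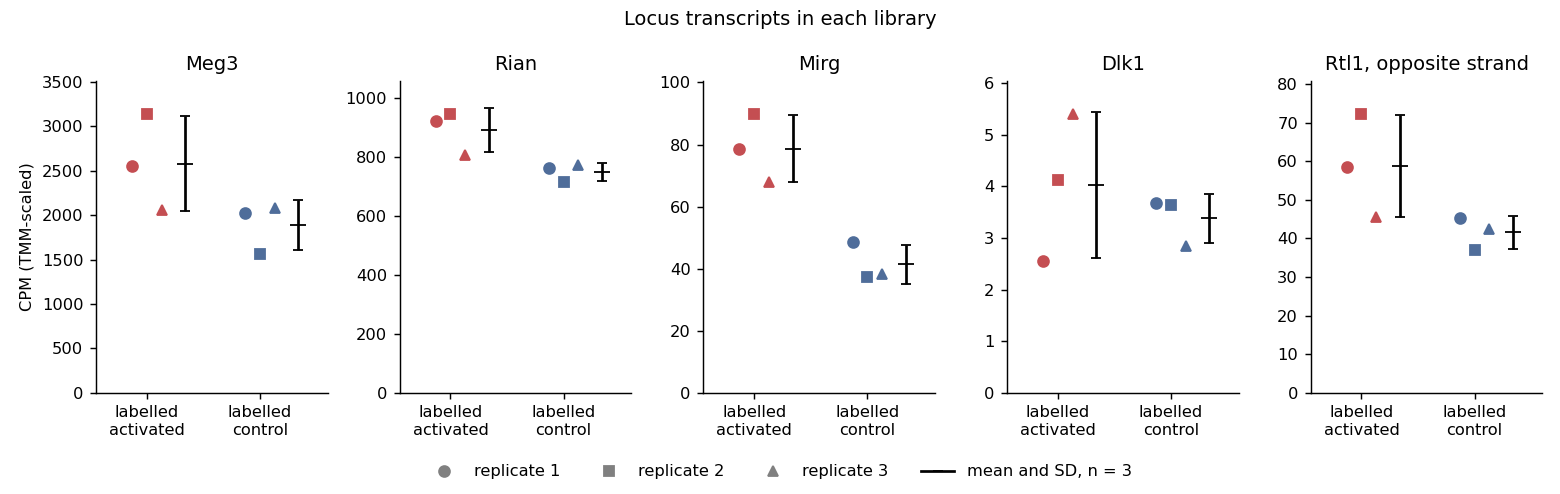
CPM, scaled by the trimmed mean of M-values, of Meg3, Rian, Mirg, Dlk1 and the strand opposite Rtl1 in each library, with libraries labelled activated at the left of each panel and libraries labelled control at the right; symbols mark replicates, and black bars the mean and SD of 3 libraries. The groups do not overlap for Rian, Mirg and the strand opposite Rtl1, and overlap for Meg3 and Dlk1.

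Rtl1, a protein-coding gene derived from a retrotransposon and needed in the mouse placenta, had almost no reads on its own strand. Rtl1 (ENSMUSG00000085925.3, chr12:109589193-109600330, minus strand) had 1, 5 and 5 reads in activated replicates 1, 2 and 3, against 4, 1 and 7 reads in control replicates 1, 2 and 3. With 23 reads in all it did not pass the low-count filter, and a difference in the Rtl1 message was not detectable at this depth. The strand opposite Rtl1, which carries the maternal antisense RNA, had 8034 reads, or 99.7% of both strands. Per library this share lay between 99.5% and 99.9%.

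The antisense reads stood at 58.4, 72.1 and 45.6 CPM in activated replicates 1, 2 and 3, against 45.4, 37.0 and 42.4 CPM in control replicates 1, 2 and 3. The groups were barely separated, with activated replicate 3 just above control replicate 1, and activated replicate 2 was again the highest. The means were 58.7 ± 13.3 CPM in libraries labelled activated and 41.6 ± 4.27 CPM in libraries labelled control (SD, n = 3 each), a log2 ratio of means of 0.50. Without activated replicate 2 that ratio was 0.32. At the other 4 members the opposite strand held between 0.0212% and 0.162% of both strands over the 6 libraries, so only Rtl1 among the members was read mainly on the opposite strand. In the unstranded counts Rtl1 had 700 to 1659 reads per library and a log2 fold change of 0.49 ± 0.12 (SE), which is a value of the antisense RNA and not of the Rtl1 message.

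**Figure D2:**
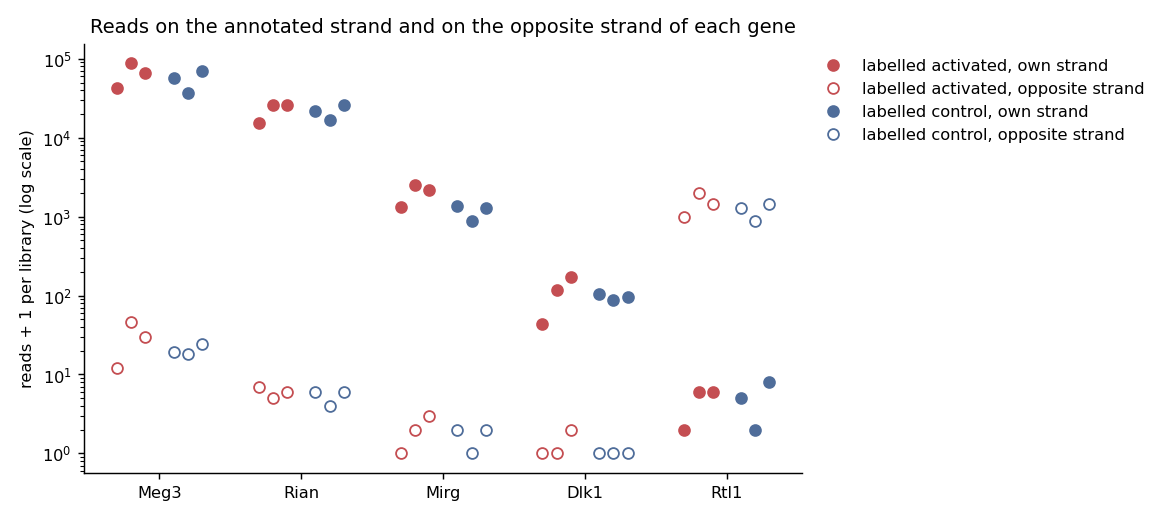
Reads + 1 (log scale) on the annotated strand and on the opposite strand of each member, per library, with libraries labelled activated left of those labelled control. Rtl1 has 1 to 7 reads per library on its own strand and 873 to 2007 on the opposite strand, the reverse of the other members.

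Dlk1, which encodes a transmembrane protein related to Notch ligands that inhibits adipocyte differentiation, was scarce in these cells, at rank 11900 of the 18132 tested genes by mean CPM. Dlk1 (ENSMUSG00000040856.17, chr12:109452823-109463336, plus strand) stood at 2.56, 4.13 and 5.39 CPM in activated replicates 1, 2 and 3, against 3.67, 3.64 and 2.84 CPM in control replicates 1, 2 and 3. Activated replicate 1 was the lowest and activated replicate 3 the highest of all 6 libraries, so the groups overlapped. The means were 4.03 ± 1.42 CPM in libraries labelled activated and 3.38 ± 0.474 CPM in libraries labelled control (SD, n = 3 each), and the log2 fold change was 0.30 ± 0.22 (SE). That value rested on single libraries, at 0.04 without activated replicate 3 and 0.50 without activated replicate 1. Between 43 and 172 reads per library stood behind it.

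Per kilobase of merged exons, the levels fell in the order Meg3, Rian, Mirg, Dlk1 and Rtl1, and each neighbouring pair was separated by far more than its spread in both groups. Meg3 had 143 ± 29.8 CPM per kilobase in libraries labelled activated and 104 ± 15.7 in libraries labelled control (SD, n = 3 each). Rian had 48.8 ± 4.05 CPM per kilobase in libraries labelled activated and 41.1 ± 1.66 in libraries labelled control. Mirg had 10.8 ± 1.50 CPM per kilobase in libraries labelled activated and 5.68 ± 0.854 in libraries labelled control. Dlk1 had 0.712 ± 0.251 CPM per kilobase in libraries labelled activated and 0.598 ± 0.0837 in libraries labelled control. By the longest transcript in place of merged exons, the levels of Rian were 110 CPM per kilobase in libraries labelled activated and 92.6 in libraries labelled control, and those of Meg3 177 and 130, with the order of members kept.

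Of the 4 members tested, 3 (Meg3, Rian and Mirg) lay past adjusted p 0.05 on the higher side and none on the lower side (edgeR quasi-likelihood test). Mirg was called under all 14 alternatives run. Meg3 was not called in the DESeq2 Wald test (0.45) or without activated replicate 2 (0.29) or control replicate 2 (0.35), and Rian was not called on total counts alone (0.18) or without activated replicate 1 (0.22) or control replicate 2 (0.23). Over all 18132 genes 16.2% were called higher, 20.6% lower and 36.8% in either direction. That split of 2945 higher and 3733 lower depended on the scaling, with 5089 and 1932 when libraries were scaled to the summed neuron markers and 2089 and 4576 on total counts alone. For 2 tested members every library labelled activated was above every library labelled control, as was the case for 22.6% of all tested genes. Since the members were proposed with these values known, nothing is read from these counts.

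Along the maternal transcription run, the difference between groups varied in size, and differences between transcripts were not tested. From Meg3 to Mirg, over 208.459 kb, the log2 ratio of group means was 0.45 for Meg3, 0.50 for the strand opposite Rtl1, 0.25 for Rian, 0.54 for Gm37899, 0.67 for B830012L14Rik and 0.93 for Mirg. Gm37899 and B830012L14Rik are annotated transcripts of unknown function between Rian and Mirg. Rian, which lies in the middle, had the lowest value. Both intervening transcripts passed the test across all genes: Gm37899 was at 64.1 ± 10.8 CPM in libraries labelled activated and 44.0 ± 5.04 CPM in libraries labelled control (SD, n = 3 each; log2 fold change 0.54, edgeR adjusted p = 0.00188). B830012L14Rik was at 79.7 ± 14.7 CPM in libraries labelled activated and 50.2 ± 4.56 CPM in libraries labelled control (SD, n = 3 each; log2 fold change 0.66, edgeR adjusted p = 0.000492).

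**Figure D3:**
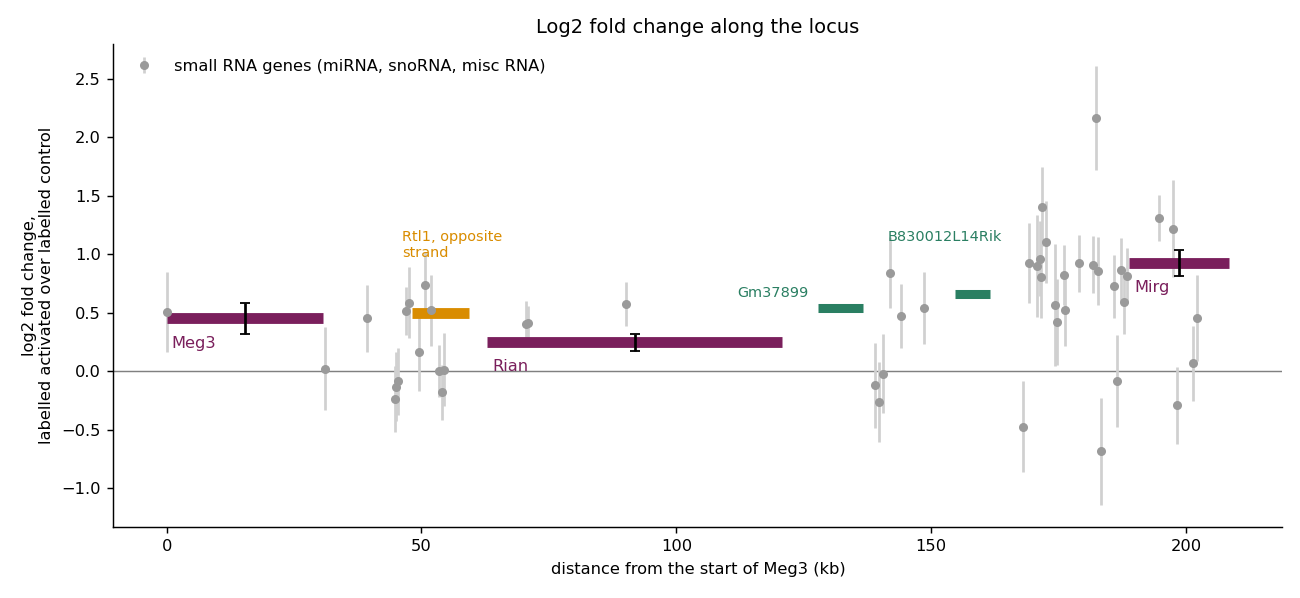
Log2 fold change (libraries labelled activated over libraries labelled control) against distance from the start of Meg3 in kb; bars span the longer transcripts, grey points are tested small RNA genes, and error bars, drawn for members and small RNA genes, are standard errors; the bar for the strand opposite Rtl1 is a log2 ratio of means. The longer transcripts lie between 0.25 (Rian) and 0.93 (Mirg), and the small RNA genes between B830012L14Rik and Mirg have a median of 0.82.

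Set against Meg3 of the same library, which removes the scaling of libraries, the longer distal transcripts Mirg and B830012L14Rik did not overlap between groups. The share of all tested genes whose ratio to Meg3 separates the groups was not computed. The 22.6% given above is for CPM, so nothing is read from these separations. Mirg reads were 3.08%, 2.86% and 3.30% of Meg3 reads in activated replicates 1, 2 and 3, against 2.41%, 2.40% and 1.83% in control replicates 1, 2 and 3. Every library labelled activated was above every library labelled control. B830012L14Rik reads were 3.10 ± 0.181% of Meg3 reads in libraries labelled activated and 2.68 ± 0.239% in libraries labelled control (SD, n = 3 each), and again the groups did not overlap. The summed small RNA genes within Mirg did overlap, at 0.253 ± 0.0611% of Meg3 reads in libraries labelled activated and 0.203 ± 0.0182% in libraries labelled control (SD, n = 3 each).

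The RNA opposite Rtl1 kept a nearly even proportion to Meg3. Its reads were 2.29%, 2.30% and 2.22% of Meg3 reads in activated replicates 1, 2 and 3, against 2.25%, 2.37% and 2.04% in control replicates 1, 2 and 3. The groups overlapped. Gm37899, at 2.50 ± 0.101% of Meg3 in libraries labelled activated and 2.34 ± 0.101% in libraries labelled control (SD, n = 3 each), overlapped as well. Rian was lower relative to Meg3 on average, at 35.1 ± 4.62% in libraries labelled activated and 40.2 ± 4.87% in libraries labelled control (SD, n = 3 each), with overlapping groups.

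**Figure D4:**
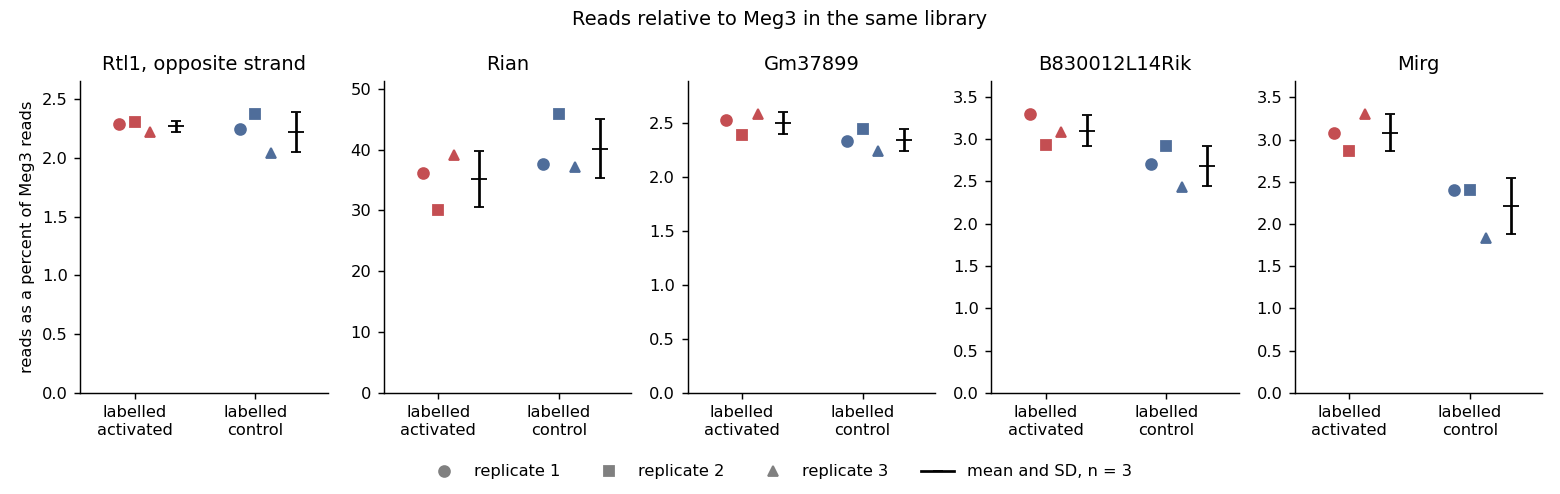
Reads of each transcript as a percent of Meg3 reads in the same library, with libraries labelled activated left of libraries labelled control; black bars give mean and SD of 3 libraries. Mirg and B830012L14Rik do not overlap between groups, whereas the strand opposite Rtl1, Rian and Gm37899 do.

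Between the start of Dlk1 and the end of Dio3, 828.274 kb, the files hold 111 other annotated genes, of which 52 passed the filter, all on the plus strand. Of these, 19 were higher in the libraries labelled activated, none was lower and 33 did not pass (edgeR, adjusted p below 0.05), with a median log2 fold change of 0.52. Over all tested genes the median was 0.04, and 16.2% were called higher, as given above. Most of the 52 are short intervals along the same run of noncoding RNAs. Their calls may therefore not be independent, and the count is of intervals and not of independent genes. The count of 19 rested partly on single libraries: it was 7 without activated replicate 2, 9 without control replicate 2 and 10 without control replicate 1. The median without activated replicate 2 was 0.30. Of the 59 genes that did not pass the filter, none exceeded 20 reads in a library and 43 had no read.

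Most of these were small RNA genes, 94 of them annotated and 49 tested, with 17 higher and none lower. Outside the domain, 230 small RNA genes were tested, of which 20 (8.70%) were higher and 4 lower, with a median log2 fold change of 0.32. Within the domain most calls lay distally, and differences between stretches were not tested. None of the 7 tested between Meg3 and Rtl1 was called (median 0.02), nor any of the 6 opposite Rtl1 whose sequences are given above (median 0.09). Summed over each stretch, the log2 ratios of means were larger than these medians, at 0.26 between Meg3 and Rtl1 and 0.30 opposite Rtl1. Both sums overlapped between groups. The same ratio was 0.76 for the small RNA genes between B830012L14Rik and Mirg. Within Rian 2 of 3 tested were called, Mir1188 and the small nucleolar RNA gene Gm24564, and between Gm37899 and B830012L14Rik 1 of 6, the small nucleolar RNA gene Gm25856. The 1 tested within Meg3 was not called.

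Between B830012L14Rik and Mirg, 12 of 21 tested hairpin genes were higher and none lower, with a median log2 fold change of 0.82. They were Mir411, Mir1197, Mir758, Mir329, Mir666, Mir667, Mir376c, Mir654, Mir376a, Mir381, Mir539 and Mir544. Hairpins this scarce could pass the low-count filter through their reads in either group alone. These counts and the median therefore depend in part on the filter. Mir495, Mir376b, Mir299a and Mir679 of the same stretch did not pass it. Mir495 stood at 0.199 ± 0.122 CPM in libraries labelled activated and 0.368 ± 0.0653 CPM in libraries labelled control (SD, n = 3 each), without overlap. In the other direction, Mir376b stood at 0.457 ± 0.110 CPM against 0.292 ± 0.0696 CPM in control, and Mir299a at 0.0961 ± 0.0530 CPM against 0, also without overlap. Mir679, at 0.290 ± 0.185 CPM against 0.147 ± 0.0533 CPM in control, overlapped. Nothing is read from these separations. Summed, the small RNA genes of this stretch stood at 20.5, 27.7 and 19.2 CPM in activated replicates 1, 2 and 3, against 13.6, 12.5 and 13.8 CPM in control replicates 1, 2 and 3. All libraries labelled activated were above all libraries labelled control. Relative to Meg3 reads the sum was 0.875 ± 0.0650% in libraries labelled activated and 0.712 ± 0.0768% in libraries labelled control (SD, n = 3 each), without overlap. Here too the share over all genes was not computed.

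Single hairpin genes rested on few reads. Mir654 had the largest value, 0.990 ± 0.310 CPM in libraries labelled activated and 0.197 ± 0.134 CPM in libraries labelled control (SD, n = 3 each; log2 fold change 2.17, edgeR adjusted p = 0.00190), from 1 to 27 reads per library. Mir758 (log2 fold change 1.41, edgeR adjusted p = 0.00558) had 8 to 39 reads per library. Within Mirg, 2 of 5 tested hairpin genes were higher. Mir453 had the smallest adjusted p of the hairpins, at 3.44 ± 0.323 CPM in libraries labelled activated and 1.39 ± 0.264 CPM in libraries labelled control (SD, n = 3 each; log2 fold change 1.31, edgeR adjusted p = 0.000231). The other was Mir154 (1.22).

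Genes whose microRNAs share a seed did not always share a call. Mir758 and Mir1197 were both higher, at 1.41 and 0.96. Mir453 was higher, whereas Mir496a stood at −0.29 and did not pass. Mir411 was higher at 0.93, whereas Mir379 stood at −0.47 and Mir1193 at 0.42, neither past the threshold. Differences between these hairpin genes were not tested. Opposite Rtl1, Mir433 stood at 0.74 (edgeR adjusted p = 0.0532), Mir127 at 0.52 and Mir136 at 0.01, with none past the threshold.

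Dio3, the paternally expressed gene at the far end that encodes the deiodinase inactivating thyroid hormone, stood at 0.714, 1.83 and 1.91 CPM in activated replicates 1, 2 and 3, against 1.13, 1.44 and 1.03 CPM in control replicates 1, 2 and 3. The groups overlapped, and the fitted difference was 0.39 on the log2 scale (SE 0.30), with an edgeR adjusted p of 0.318. Its antisense neighbour Dio3os had at most 2 reads in a library and was not tested.

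Among genes flanking the domain, calls on the lower side outnumbered those on the higher side. Of 29 tested within 1 Mb on either side, 2 were higher and 9 lower in libraries labelled activated, with a median log2 fold change of −0.07 that turned to 0.064 when libraries were scaled to the summed neuron markers (edgeR). The 6 with the smallest p were all lower: the chaperone gene Hsp90aa1 (−0.57, edgeR adjusted p = 5.94e-05), Cinp (−0.36), the tryptophanyl-tRNA synthetase gene Wars (−0.36), the actin regulator gene Evl (−0.25), the phosphatase subunit gene Ppp2r5c (−0.26) and the zinc finger factor gene Yy1 (−0.23). The count of lower neighbours was 5 without activated replicate 2 or control replicate 2, and the count of higher ones was 0 without activated replicate 1, control replicate 2 or control replicate 3. Yy1 had no call without activated replicate 1 (−0.23), activated replicate 2 (−0.18), control replicate 2 (−0.20) or control replicate 3 (−0.21), nor had Ppp2r5c without control replicate 2 (−0.19).

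Other imprinted genes, outside the domain, were lower more often than higher. Of 51 listed, 45 were tested, 7 were higher and 17 lower (edgeR), with a median log2 fold change of −0.12 which with the neuron marker scale was 0.011. The count of 7 was 4 without activated replicate 1, control replicate 2 or control replicate 3. Of 24 tested genes listed as expressed from the paternal allele, 12 were lower and 3 higher (median −0.26). Of 17 listed as expressed from the maternal allele, 4 were lower and 4 higher (median −0.12). The parental allele is as listed for each gene and was not measured in these cells. Of the remaining 4 genes 1 was lower.

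The paternally expressed noncoding RNA Peg13 was at 99.0 ± 5.33 CPM in libraries labelled activated and 172 ± 3.73 CPM in libraries labelled control (SD, n = 3 each; log2 fold change −0.80, edgeR adjusted p = 3.56e-06). Nap1l5, of the nucleosome assembly protein family, was at 88.7 ± 7.50 CPM in libraries labelled activated and 174 ± 21.1 CPM in libraries labelled control (SD, n = 3 each; log2 fold change −0.97). Zrsr1 (−0.61), the splicing protein gene Snrpn (−0.56), Zdbf2 (−0.64), the zinc finger gene Peg3 (−0.41), the retrotransposon-derived Peg10 (−0.63) and Impact (−0.31) were lower. All of these are listed as paternally expressed. Ppp1r9a (−0.31), listed as maternally expressed, was lower too. Kcnq1ot1, a long noncoding RNA of another imprinted domain, was higher, at 504 ± 81.0 CPM in libraries labelled activated and 331 ± 40.8 CPM in libraries labelled control (SD, n = 3 each; log2 fold change 0.60, edgeR adjusted p = 0.000781). H19 stood at 0.63 and did not pass (edgeR adjusted p = 0.125), and Igf2 was not tested.

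Nuclear noncoding RNAs from elsewhere in the genome were higher in part. Of 18 tested genes on a list of nuclear long noncoding RNAs, 9 were higher and none lower, with a median log2 fold change of 0.41 (edgeR). Their location in these cells was not measured, and not all on the list need be mainly nuclear. Kcnq1ot1 and Snhg14 are also in the imprinted list, and without these 2 genes 7 of 16 were higher. The summed level of the 18 was 11595 to 15459 CPM in libraries labelled activated and 8942 to 10139 CPM in libraries labelled control. Most of that sum was Malat1, at 10684 ± 1635 CPM in libraries labelled activated and 7745 ± 484 CPM in libraries labelled control (SD, n = 3 each). Neat1, the scaffold of paraspeckles, stood at 0.63 and Mir124a-1hg, the host of a neuronal microRNA, at 0.62. By annotated type, the long intergenic noncoding class had 79 of 490 genes (16.1%) higher and 16 (3.27%) lower. In the class awaiting experimental confirmation, to which Gm37899 belongs, 361 of 1509 genes (23.9%) were higher and 14 (0.928%) lower. Protein-coding genes were higher in 2269 (16.1%) and lower in 3624 (25.7%) of 14095 cases. The long intergenic class was thus called higher no more often than protein-coding genes, and differed in its share lower. The share of reads outside annotated exons was 32.6 ± 4.54% in libraries labelled activated and 27.7 ± 2.32% in libraries labelled control (SD, n = 3 each; exact permutation test, two-sided, p = 0.3), and was highest in activated replicate 2, the library with the most Meg3. The part of nuclear RNA content in the members' differences was not tested.

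**Figure D5:**
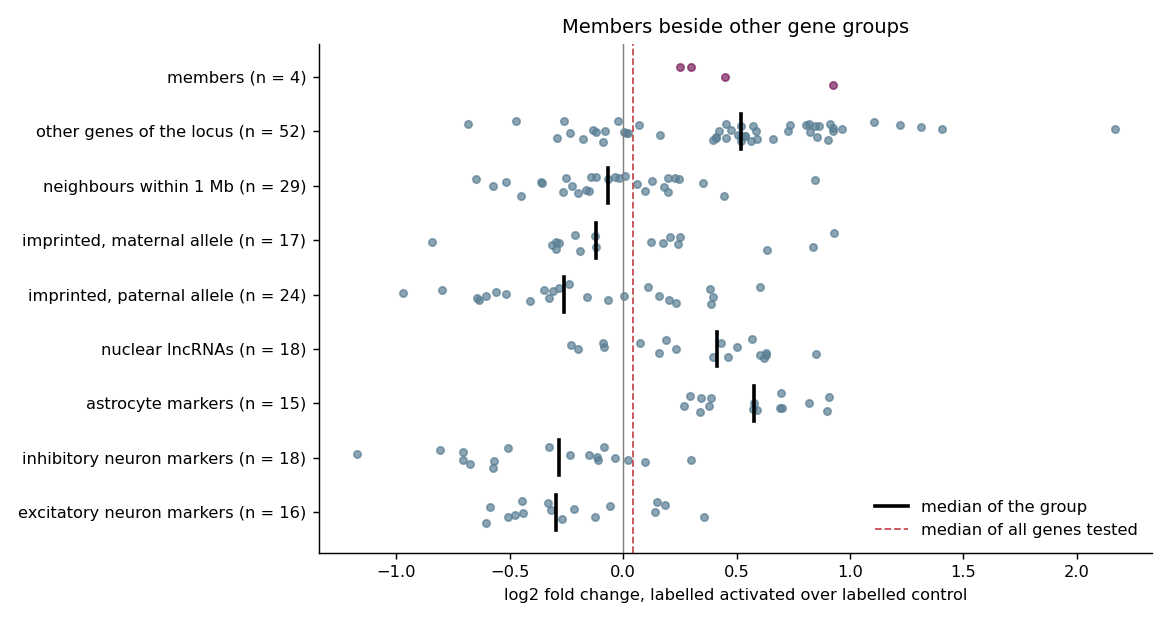
Log2 fold change (libraries labelled activated over libraries labelled control) of each tested gene, by group; black lines are group medians, none being drawn for the members, and the dashed line is the median of all 18132 tested genes. The other genes of the domain, nuclear noncoding RNAs and astrocyte markers lie mostly above 0, and both neuron marker groups mostly below.

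Many cell type markers also moved with the groups, and in bulk RNA fewer cells of a type and less RNA per cell cannot be told apart. Of 16 excitatory neuron markers 8 were lower, with Bcl11b at −0.60 and Neurod2 at −0.59, and 1, Camk2a (0.36), was higher (edgeR). Excitatory sums overlapped, at 4384 to 4769 CPM in libraries labelled activated and 4581 to 4882 CPM in libraries labelled control. Of 18 inhibitory neuron markers 10 were lower and none higher (edgeR), with Gad1 at −0.81 and Pvalb at −1.17. Inhibitory markers summed to 2672 to 2962 CPM in libraries labelled activated and 3371 to 3488 CPM in libraries labelled control. Of 15 tested astrocyte markers 14 were higher and none lower, with the transporter gene Slc1a3 at 0.69 and the lipoprotein gene Apoe at 0.70.

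Of 8 tested oligodendrocyte lineage markers 4 were higher, Olig2 (0.70) and Cspg4 (0.81) among them, and Gpr17 had no read. Cspg4 is also on the vascular and fibroblast list below. Pdgfra (0.33), Cnp (0.18), Mbp (−0.005) and Myrf (0.53) were not called. Sox10, at 0.0542 CPM in libraries labelled activated and 0.0315 CPM in libraries labelled control, was not tested. The oligodendrocyte list summed to 79.2 to 90.6 CPM in libraries labelled activated and 60.4 to 65.8 CPM in libraries labelled control. Of 13 tested microglia markers 8 were higher, including Tyrobp (0.65), which had no call without activated replicate 3 (0.41) or control replicate 3 (0.53), at sums of 74.2 to 139 CPM in libraries labelled activated and 62.1 to 83.7 CPM in libraries labelled control. Of 13 tested vascular and fibroblast markers 9 were higher, including Fn1 (0.79) and Col1a2 (0.88), at sums of 385 to 447 CPM in libraries labelled activated and 245 to 276 CPM in libraries labelled control. No tested marker of these last 3 lists was called lower. Mitochondrial reads were 23.1 ± 1.84% in libraries labelled activated and 16.1 ± 1.24% in libraries labelled control (SD, n = 3 each; exact permutation test, two-sided, p = 0.1, the smallest possible). The part of these differences in the members' values was not tested.

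The pathways in which the protein-coding genes of the domain act were measured through other genes. Of 32 tested genes of Notch signalling, which Dlk1 is known to affect, 12 were higher and 5 lower in libraries labelled activated, with a median of 0.22 (edgeR), and the receptor genes Notch2 and Notch1 stood at 0.65 and 0.57. Of 8 tested genes of thyroid hormone handling, with which Dio3 is concerned, 3 were higher and 3 lower. The transporter gene Slco1c1, which marks astrocytes and vessels of brain, was at 0.91, and the hormone-responsive transcription factor gene Klf9 at −0.78.

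The machineries that process the small RNAs of the domain showed few or opposite differences. Of 13 genes of microRNA processing 2 were higher and 1 lower (edgeR), with the Argonaute gene Ago3 at 0.34 and Tnrc6b, which acts with Argonautes, at −0.18. Tnrc6b kept no call when any library except activated replicate 2 was left out (−0.20 to −0.14). Of 8 genes of C/D box small nucleolar RNA biogenesis 5 were lower and none higher, among them Snu13 (−0.55) and Nolc1 (−0.43). Of 20 regulators of imprinting marks or chromatin, 9 were lower and 2 higher. Trim28, a corepressor that protects imprints, stood at −0.44 and the 5-methylcytosine oxidase gene Tet3 at −0.34.

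The genes whose pattern over the 6 libraries lay nearest to each member were sought among 15306 genes of at least 1 CPM on average, by the root mean square difference of centred log2 CPM. For Meg3 they were Gm44679 (0.04), Gm43606 (0.04) and Gm2824 (0.05), and Gm37899 of the same domain ranked 18. B830012L14Rik ranked 418, Rian 963 and Mirg 3983 in likeness to Meg3. Nearest to Rian were Abca4, Rcor3 and Ccser1 (each 0.02), and nearest to Mirg were Gm37777 (0.06), Gm43274 (0.08) and Zfhx2os (0.09), with B830012L14Rik at rank 99. Nearest to Dlk1 were Cyth4 (0.08), Foxf2 (0.09) and Cetn4 (0.11). The libraries share their scaling, and genes of like fold change and spread necessarily lie near each other by this measure.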

How the data were processed

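Total RNA depleted of ribosomal RNA was sequenced from 6 strand-specific libraries, 3 labelled activated and 3 labelled control. Per the submitters' processing notes, the authors aligned reads to mm10 with STAR 2.5.2b and used edgeR; parameters and annotation release are not given in the sources used here. The deposited counts per gene have 3 columns per library, unstranded and 1 per strand. The reverse-strand column was used, and its opposite only where stated. The 4 lines naming no gene were left out of library sizes; reads outside exons are the largest of them, at 32.6% of reads in libraries labelled activated and 27.7% in libraries labelled control.

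Genes were kept by filterByExpr (minimum count 10, total 15), scaled by TMM and tested with edgeR 4.0.16 (R 4.3.3), quasi-likelihood, no covariates, Benjamini-Hochberg over 18132 genes, threshold 0.05. CPM are TMM-scaled. Standard errors divide the size of the log2 fold change by the root of its F statistic. Simulated counts were used to test the procedure. Names, coordinates and exon lengths came from GENCODE M21, which held 55144 of 55385 identifiers. Sequences are RefSeq's.

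Members and gene lists were chosen with earlier results of these data known. Named are the members, called genes of the domain, at most 6 neighbours, 10 imprinted genes (plus Ube3a, H19 and Igf2), 2 per other list and 3 nearest patterns per member. One gene that this rule selects is not reported here. Shared seed hairpins, Mir495, Mir376b, Mir299a, Mir679, Malat1, Igf2r, Cdkn1c, Slc22a18, Uhrf1, Zfp57 and Snhg14 were named after their values were seen. The same holds for Camk2a, Pdgfra, Cnp, Mbp, Myrf and Sox10. Alternatives were DESeq2 1.42.0 size factors and Wald test, total counts, summed neuron markers as scale, other filters, unstranded counts, a replicate block and leaving out each library. Replicate numbers were checked for pairing, and same-numbered libraries were not closest to each other. That check cannot exclude a shared preparation, and libraries were treated as unpaired.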

Additional observations from a re-analysis of the deposited data

How the results depend on the processing

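The 4 tested members and the strand opposite Rtl1 kept the sign of their difference under all alternatives run: Meg3 lay between 0.29 and 0.60, Rian between 0.18 and 0.39, Mirg between 0.82 and 1.07, Dlk1 between 0.04 and 0.50, and the log2 ratio of the strand opposite Rtl1 between 0.032 and 0.65. Of 14 alternatives, Meg3 lost its call in 3, Rian in 3 and Mirg in none. Relative to Meg3 reads, that last ratio was 0.032. Scaling to the summed neuron markers moved the median of all genes by 0.13, to 0.18. Under it Rian stood at 0.39, 5089 genes were higher and 1932 lower, 3 neighbours were lower, and the medians of other genes of the domain, neighbours and imprinted genes were 0.66, 0.064 and 0.011, the last 2 with their sign turned. Without TMM, on total counts alone, 2089 genes were higher and 4576 lower, against 2945 and 3733 with it, the median of all genes was −0.025 and no neighbour was higher. The neighbour count of 2 higher was 1 with DESeq2 size factors, the DESeq2 Wald test, no low-count filter, unstranded counts or the block. The other genes of the domain numbered 10 higher with the DESeq2 Wald test.

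With the replicate number as a block, 10 other genes of the domain and 4 imprinted genes were higher, and 12 of 69 named genes called lost their call. The deviations of same-numbered libraries had correlations of −0.01, −0.18 and −0.21, and no library was closest to its own number in the other group. Leaving out each library gave 7 to 27 other genes of the domain higher (median 0.30 to 0.67), 4 to 8 imprinted genes higher, and 0 to 2 neighbours higher and 5 to 9 lower. Of the 69 named genes called, 47 kept the call and direction throughout and 20 lost it without some library. One reversed: Ube3a stood at 0.17 in unstranded counts. The causes of these shifts were not tested. Depth limits the Rtl1 message, Dio3os and single hairpin genes.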

Other observations

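Ube3a, which neurons express from the maternal chromosome and which is silenced on the paternal one by an antisense RNA, gave another case where strand decided the value. On its own strand it was lower in libraries labelled activated, at 168 ± 8.98 CPM, against 204 ± 9.95 CPM in libraries labelled control (SD, n = 3 each; log2 fold change −0.28, edgeR adjusted p = 0.00402). The opposite strand held 4063 to 7519 reads per library labelled activated and 2824 to 5756 per library labelled control, and in unstranded counts the log2 fold change was 0.17 (edgeR adjusted p = 0.120).

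Further genes of the imprinting lists were called higher. The growth inhibitor gene Cdkn1c (0.93) and the transporter gene Slc22a18 (0.84) were higher in libraries labelled activated (edgeR). Both are listed as maternally expressed and are of the domain that holds Kcnq1ot1. Also higher were Igf2r (0.24), Zfp57 (0.29), a zinc finger gene that guards imprints, and Uhrf1 (0.98), which recruits DNA methylation in dividing cells. Uhrf1 stood at 1.53 ± 0.0943 CPM in libraries labelled activated and 0.784 ± 0.319 CPM in libraries labelled control (SD, n = 3 each).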
